A study of Rattus norvegicus with 12 samples.

Results

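Cultured rat heart muscle cells given a repressive form of the transcription factor MEF2C were compared with cells given a second version of that form. Each group had 3 arrays of the 12 in the series, and all 15209 probe sets with a single gene symbol among 28826 on the array were taken. The first group (γ+) received adenovirus carrying mef2Cγ+. The other group (23/24) received adenovirus carrying mef2Cγ+23/24, a γ+ form whose numbers the labels do not define. All cells were ventricular cardiomyocytes of newborn Wistar rats, a primary culture that beats but is not fully mature, plated for 44 h with 10% horse serum and 5% fetal bovine serum and then kept for 24 h without serum. Untreated cultures (control, 3 arrays) are given last where they help to place a value. No group received an empty virus. The labels call the 3 arrays of a group biological replicates but do not state if each had its own cell isolation, so p-values measured only the spread between these samples.

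MEF2C is a DNA-binding protein of the MADS-box family that partners with other MEF2 proteins and switches on genes of the contractile apparatus in striated muscle. Class IIa histone deacetylases bind MEF2 proteins and hold their targets silent, and calcium-dependent kinases release them. Alternative splicing can include the γ segment, which is known to repress the activity of the protein. Mef2c itself was not analysed here, so the level of either transgene was not checked.

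Values were the deposited levels, taken as log2, and every difference is γ+ minus 23/24 on that scale, so that 1 is a 2-fold difference. Some genes had exactly the same value on 2 arrays, which was seen for 27 to 111 probe sets in each of the 21 pairs within γ+, within mef2Cγ-, or within 23/24 and control together. No such value was shared by any of the 9 pairs of a γ+ with a 23/24 array. Thus γ+ and 23/24 were apparently scaled apart from each other, and an effect of that scaling and of the group cannot be told apart. The SD of the difference over genes was 0.588 to 0.614 between a γ+ and a 23/24 array, against 0.116 to 0.241 within γ+ and 0.117 to 0.164 within 23/24. Replicate 2 of γ+ stood apart from the other 2 arrays of its group. The 12 markers of cardiomyocytes were all above the filter on low values, with a median level of 10.68 in γ+ arrays and 12.04 in 23/24 arrays. All 16 fibroblast markers and 15 of 16 smooth muscle markers were above it as well, so the cultures held RNA of the labelled cell type beside markers of others.

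Genes of the contractile apparatus, mitochondria and extracellular matrix were lower with γ+ than with 23/24, while genes of DNA replication, mitosis and the interferon response were higher. Of 10025 genes tested, limma called 6599 (65.8%) at an adjusted p under 0.05, 2804 higher (28.0%) and 3795 lower (37.9%) with γ+. A called difference of at least 1 was reached by 333 genes that were higher (3.32%) and 569 that were lower (5.68%), together 902 (9.00%). For all 902 the γ+ arrays did not overlap the 23/24 arrays, as was the case for 67.4% of all genes. Differences of 2 or more were found for 23 genes that rose and 54 that fell. The median difference of all genes was -0.07, and it was 0.07 after centring each array on its median and -0.01 after quantile normalization. As deposited, 42.5% of the calls were higher. Median centring gave 3703 genes higher (36.9%) and 2628 lower (26.2%), so that 58.5% of its calls were higher, and quantile normalization 3198 higher (31.9%) and 3348 lower (33.4%), or 48.9%. All 902 calls of 1 or more held under both other scalings, and 5380 genes (53.7%) were called in the same direction under all 3. Without replicate 2 of γ+, 3091 genes were called higher and 3768 lower.

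**Figure D1:**
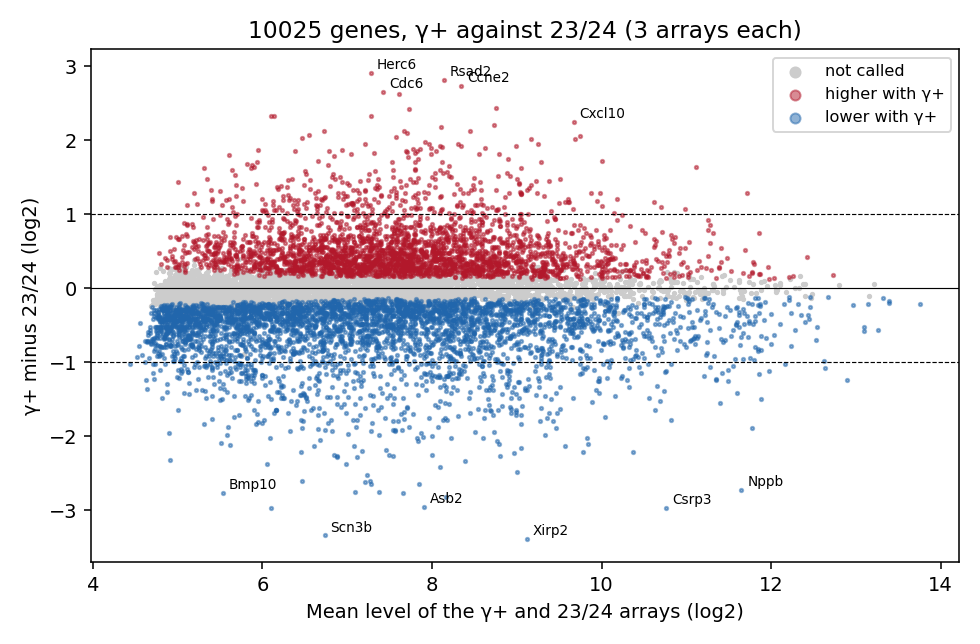
Each point is 1 of 10025 genes, with its mean level over the γ+ and 23/24 arrays on the x axis and the γ+ minus 23/24 difference on the y axis, both log2. Dashed lines mark a difference of 1; the lowest points reach -3.39 (Xirp2) and the highest 2.91 (Herc6).

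By contrast, 23/24 cultures lay close to untreated ones. limma called 0 of 10025 genes (0.00%) between 23/24 and control, with a lowest adjusted p of 0.209, and 899 genes (8.97%) had an unadjusted p under 0.05. In absolute size, 99% of the 23/24 minus control differences were under 0.32, while the same percentile of the γ+ minus 23/24 differences was 1.92. Since both differences use the 23/24 arrays, they are given side by side only. Equal values were shared by 23/24 and control arrays but not by γ+ arrays with either. Thus 23/24 and control were apparently scaled together and γ+ apart from them, and the part of scaling in this contrast was not tested. A p that misses the threshold does not show that 23/24 and untreated cultures were alike. Among genes called between γ+ and 23/24, the 23/24 minus control difference was largest for Lsm5 (-0.57), Abo (0.55), Tmem215 (0.52), Dok3 (0.48) and Angpt4 (0.48), whose γ+ minus 23/24 differences were 0.59, -0.47, -0.36, -0.63 and -0.26. For these genes the γ+ arrays lay on the control side of the 23/24 arrays. Choosing genes by differences that share the 23/24 arrays favours this, so it is no result about them. Abo, Tmem215 and Angpt4 were not called under some alternative settings.

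The 12 genes that fell most encoded Z-disc and other muscle proteins, secreted factors, a channel subunit, a receptor and enzymes. Xirp2, an actin-binding protein of the Z-disc and intercalated disc, had levels of 7.50, 7.42 and 7.35 in γ+ arrays, against 10.76, 10.90 and 10.78 in 23/24 arrays. It was 10.5-fold lower with γ+ (difference -3.39 ± 0.06 SE, limma adjusted p = 6.2e-16), while the control arrays stood at 10.87, 11.05 and 10.98. Every γ+ array lay far under every 23/24 array, and the 23/24 values bordered on those of untreated cells. Scn3b, an auxiliary subunit of voltage-gated sodium channels, had 5.02, 5.12 and 5.06 in γ+ arrays and 8.33, 8.38 and 8.51 in 23/24 arrays (difference -3.34 ± 0.06, limma adjusted p = 1.6e-15). Csrp3, a LIM protein that senses stretch at the Z-disc, had 9.30, 9.24 and 9.31 in γ+ arrays and 12.20, 12.27 and 12.29 in 23/24 arrays. Its difference of -2.97 ± 0.04 had the lowest p of these genes (limma adjusted p = 4.1e-17). Asb2, a ubiquitin ligase subunit that acts on filamins, had 6.31, 6.50 and 6.47 in γ+ arrays and 9.29, 9.37 and 9.51 in 23/24 arrays. Nppb, the precursor of the B-type natriuretic peptide released by stretched heart muscle, had 10.46, 10.13 and 10.27 in γ+ arrays and 12.99, 13.02 and 13.03 in 23/24 arrays, a 6.62-fold lower level with γ+. The remaining large falls were those of Itgb1bp2, the muscle chaperone melusin (-2.82); Bmp10, a cardiac growth factor (-2.77); Sln, the calcium pump regulator sarcolipin (-2.77); Ccn5, a matricellular protein (-2.76); Ackr3, a scavenging chemokine receptor (-2.75); Sfrp2, a secreted Wnt antagonist (-2.65); and B3galt2, a galactosyltransferase (-2.97).

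The 12 genes that rose most included interferon-induced genes and cell cycle genes beside others. Herc6, an interferon-induced ubiquitin ligase, had 8.77, 8.71 and 8.71 in γ+ arrays, against 5.77, 5.87 and 5.83 in 23/24 arrays, 7.50-fold higher with γ+ (difference 2.91 ± 0.08, limma adjusted p = 3.2e-14). Rsad2, the antiviral enzyme viperin, had 9.69, 9.39 and 9.55 in γ+ arrays and 6.56, 6.68 and 6.96 in 23/24 arrays (2.81 ± 0.09, limma adjusted p = 4.1e-13). Ccne2, the cyclin that drives entry into S phase, had 9.78, 9.65 and 9.70 in γ+ arrays and 6.93, 7.06 and 6.96 in 23/24 arrays (2.73 ± 0.07, limma adjusted p = 1.5e-14). For all 3 genes the groups were separated by more than 2 log2 units, and the untreated cultures lay on the same side as the 23/24 ones. Cdc6, which loads the replicative helicase onto DNA, had 8.84, 8.60 and 8.81 in γ+ arrays and 6.20, 6.05 and 6.06 in 23/24 arrays. Behind these came the spindle protein gene Psrc1 (2.63), the DNA-damage-induced apoptosis suppressor Ddias (2.43), Dck, the deoxycytidine kinase that salvages nucleosides (2.42), the adhesion molecule gene Amigo2 (2.33), Rtp3, a receptor transport protein (2.32), Mns1 of cilia and flagella (2.32), Cxcl10, the interferon-induced chemokine (2.24), and Mybl2, a transcription factor of the cell cycle (2.21).

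**Figure D2:**
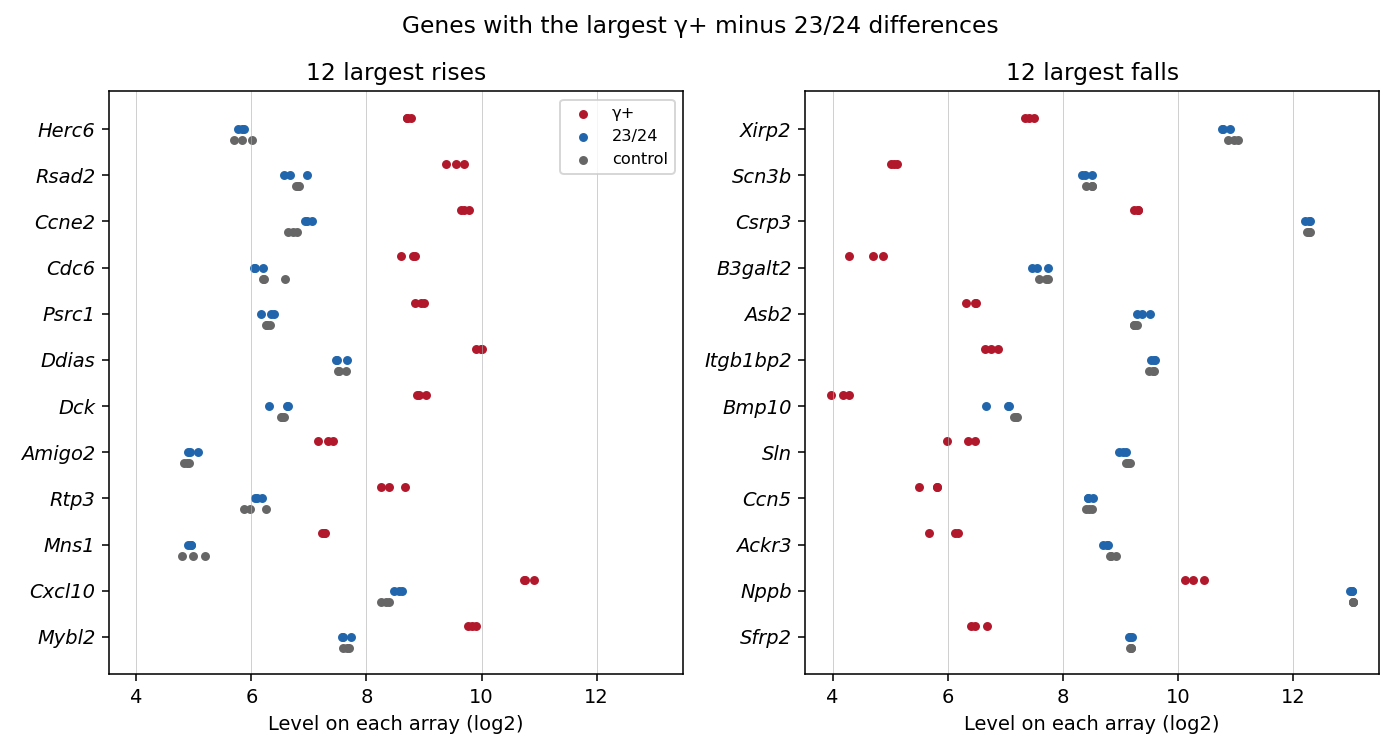
Level of each of the 12 genes that rose most and the 12 that fell most, log2, with 1 point per array for γ+ (red), 23/24 (blue) and control (grey). The γ+ points lie apart from both other groups for every gene shown, and Nppb has 10.13 to 10.46 in γ+ arrays against 12.99 to 13.03 in 23/24 arrays.

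Sarcomere genes fell almost without exception. The sarcomere is the repeating unit in which myosin thick filaments pull on actin thin filaments anchored at the Z-disc. Of 10 thick filament genes tested 8 fell and 0 rose (median difference -0.98, against -0.07 for all genes), and all 13 thin filament genes fell (median -0.90; 12 under median centring). Among 16 Z-disc genes 14 fell (median -1.32), and the other two, Ankrd2 and Actn3, had -0.33 and -0.24. Myh6 and Myh7, the fast and slow cardiac myosin heavy chains, had -1.42 and -1.55, although probes for these near-identical genes may share signal. Levels of Myh7 were 10.66, 10.43 and 10.79 in γ+ arrays, against 12.03, 12.25 and 12.25 in 23/24 arrays. Tnni3, the adult cardiac inhibitory troponin, fell by 2.13, and Tnni1, the fetal one, by 1.46. Actin genes moved the same way, with Actc1 at -1.24 and Acta1 at -1.16. Actn2, which crosslinks actin in the Z-disc, had 10.94, 10.79 and 10.88 in γ+ arrays and 12.07, 12.12 and 12.16 in 23/24 arrays. The list of titin, M-band and associated genes had the lowest median of the lists (-1.40), with 8 of 9 lower. Among them were Smyd1, a muscle methyltransferase that stabilises myosin (-2.07), and Myom1 (-1.94). Titin itself (Ttn) had a smaller difference of -0.65, and Sspn on this list was also counted in the dystrophin complex. Trim63, a ubiquitin ligase of the sarcomere, was the member that rose (0.20), while its relatives Trim55 and Trim54 fell by 1.68 and 1.22.

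Membrane and junction genes showed the same direction. Of 12 intercalated disc genes 11 fell, including Gja1, the main ventricular gap junction protein (-1.25), and Ctnna1, the α-catenin that joins cadherins to actin (-1.32). Ctnnb1, the β-catenin of junctions and Wnt signalling, rose by 0.48. In the dystrophin complex, which ties the cytoskeleton to the membrane, 7 of 8 genes fell, with Sspn at -1.78 and Cav3 at -1.34, and the dystrophin homologue Utrn had -0.02 (95% interval -0.15 to 0.11).

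Genes that move calcium and other ions were mostly lower too. Calcium release from the sarcoplasmic reticulum triggers each contraction, and its return allows relaxation. In this list 16 of 23 genes fell and 2 rose (median -0.59). Ryr2, the calcium release channel, had 8.12, 8.15 and 8.13 in γ+ arrays, against 9.94, 9.98 and 9.98 in 23/24 arrays (-1.83 ± 0.05, limma adjusted p = 1.9e-14). Atp2a2, the pump that returns calcium, had 10.95, 10.69 and 10.92 in γ+ arrays and 11.95, 12.04 and 12.02 in 23/24 arrays (-1.15 ± 0.06). Both showed groups well apart. Stim1, a calcium sensor of the reticulum, and Itpr1, a release channel opened by inositol trisphosphate, rose by 0.25 and 0.26. The groups overlapped for Stim1, which was not called under some alternative settings. In the list of potassium and sodium channel genes 14 of 19 fell, led by Kcnq1, a channel of the slow repolarizing current (-1.88). This list includes Atp1b1, a sodium pump subunit (-1.78), and leaves out Scn3b, which fell more (-3.34). Kcnd2, a channel of the transient outward current, was the 1 that rose, with 6.52, 6.32 and 6.65 in γ+ arrays and 4.85, 4.51 and 4.74 in 23/24 arrays (1.80 ± 0.13), while its relative Kcnd3 fell by 0.88. Adrenergic and muscarinic signalling genes fell in 18 of 22 cases, with Adra1a, the α1A-adrenergic receptor, at -2.26, and Adrb1, the main cardiac β-receptor, at -0.44.

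Of 22 core cardiac transcription factor genes 11 fell and 5 rose (median -0.23), where 37.9% of all genes were lower and 28.0% higher. Myocd, the coactivator myocardin, fell by 1.34 and Gata4, a zinc finger factor, by 0.48, whereas Gata6 rose by 0.25. Nkx2-5, a homeodomain factor, had 9.46, 9.57 and 9.50 in γ+ arrays and 9.66, 9.61 and 9.64 in 23/24 arrays, and it was not called (-0.13, 95% interval -0.27 to 0.01). In the MEF2 family, Mef2a had 9.76, 9.84 and 9.77 in γ+ arrays and 10.35, 10.40 and 10.36 in 23/24 arrays (-0.58 ± 0.05, limma adjusted p = 1.2e-08). Mef2d had 8.76, 9.47 and 8.79 in γ+ arrays and 9.58, 9.58 and 9.62 in 23/24 arrays, so that replicate 2 of γ+ lay close to the 23/24 level; its difference was -0.59 with that array and -0.82 without it. Mef2b had 5.71, 5.85 and 5.61 in γ+ arrays and 5.32, 4.91 and 4.74 in 23/24 arrays, low on the scale in both, and was called higher (0.73 ± 0.13). The class IIa deacetylase genes Hdac5 and Hdac4 had 0.02 and 0.08 and were not called, and Hdac7 fell by 0.46. Of 30 genes taken as MEF2 targets, a list put together with earlier results of these data known, 29 fell (median -1.08). Bop1, whose place among MEF2 targets was not checked, rose by 0.25. The genes that fell included Hspb7, a small heat shock protein of muscle (-2.21), and Pygm, muscle glycogen phosphorylase (-2.10). Ckm, muscle creatine kinase (-1.94), and Myom1 were among them too.

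Promoter sequences give a view that the array values do not contain. RefSeq windows (GRCr8 assembly) from 250 bases before to 50 after the start were available for 8319 of the tested genes. The MEF2 site, searched by its published consensus, which reads alike on both strands, lay in 20 of 430 windows of genes lower by at least 1 (4.65%), in 5 of 282 windows of genes higher by at least 1 (1.77%), in 1.41% of tested windows and in 3.29% of all 33469 windows. In the MEF2 target list 6 of 23 windows held it (26.1%). The serum response element, searched by name and on both strands, lay in 13 of the 430 windows (3.02%), 5 of the 282 (1.77%), 1.23% of tested windows and 1.64% of all. A match describes letters in a window and is not a measured binding site. The 250 bases before the start are printed for the 3 genes with the largest falls whose match lay there, with the MEF2 match in capitals, beginning 74 bases before the start in Xirp2, 96 in Hspb7 and 150 in Trim72.
Xirp2 (chr3:72533936-72534185, plus strand): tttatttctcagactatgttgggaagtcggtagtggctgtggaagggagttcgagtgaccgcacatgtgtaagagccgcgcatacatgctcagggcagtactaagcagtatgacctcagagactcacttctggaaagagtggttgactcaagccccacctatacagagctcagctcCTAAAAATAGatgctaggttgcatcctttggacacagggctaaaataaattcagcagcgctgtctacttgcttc
Hspb7 (chr5:159010509-159010758, plus strand): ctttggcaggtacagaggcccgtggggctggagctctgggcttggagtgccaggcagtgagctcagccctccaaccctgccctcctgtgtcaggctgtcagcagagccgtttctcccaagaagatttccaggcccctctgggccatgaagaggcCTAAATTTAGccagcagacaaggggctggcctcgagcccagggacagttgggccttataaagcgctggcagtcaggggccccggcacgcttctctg
Trim72 (chr1:192043970-192044219, plus strand): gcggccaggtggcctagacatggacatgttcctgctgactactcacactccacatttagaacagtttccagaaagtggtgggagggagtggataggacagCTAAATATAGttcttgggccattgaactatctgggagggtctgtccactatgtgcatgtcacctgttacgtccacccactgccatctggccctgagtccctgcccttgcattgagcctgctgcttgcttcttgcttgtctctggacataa
Hspb7 had levels of 8.62, 8.75 and 8.64 in γ+ arrays, against 10.81, 10.88 and 10.95 in 23/24 arrays. Trim72, a membrane repair protein of muscle, had 6.51, 6.39 and 6.22 in γ+ arrays and 8.46, 8.58 and 8.60 in 23/24 arrays (-2.18 ± 0.09). Like Xirp2, both had γ+ arrays that stayed far below the 23/24 arrays.

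Mitochondrial energy genes fell together by moderate amounts. The respiratory chain passes electrons from complex I onwards and complex V makes ATP. Of 26 complex I genes 25 fell (median -0.52), and of 31 genes of complexes II to V 30 fell (median -0.65). Ndufa10, an accessory subunit of complex I, fell by 1.08 and Cycs, cytochrome c, by 0.97. In the citric acid cycle list 17 of 19 genes fell and Pdk1, a kinase that inhibits pyruvate dehydrogenase, rose by 0.34. Fatty acid genes fell in 27 of 33 cases (median -0.42; 18 of 33 under median centring), led by Cpt1b, which brings fatty acids into mitochondria (-1.62), and Cd36, a fatty acid transporter (-1.43). Glucose genes fell in 26 of 30 cases (median -0.40; 18 under median centring), with Pygm and the muscle enolase Eno3 (-1.77) in front. Metabolic regulators were divided, since Ppara, a nuclear receptor for fatty acids, fell by 1.47 and the coactivator Ppargc1b by 1.49, while the mitochondrial genome factors Tfam and Nrf1 rose by 0.67 and 0.55. Cholesterol and lipid synthesis genes fell in 22 of 23 cases (median -0.66), with the desaturase gene Scd at -1.32.

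DNA replication genes all rose. Before S phase, the origin complex, Cdc6 and Cdt1 load the MCM helicase onto origins, and polymerases, clamp and clamp loader then copy the DNA. All 45 replication genes tested were called higher (median 1.33, range 0.52 to 2.65), 37 of them by at least 1, and this held under the other scalings. Mcm5, a helicase subunit, had 10.20, 10.23 and 10.25 in γ+ arrays, against 8.17, 8.31 and 8.34 in 23/24 arrays (1.95 ± 0.07, limma adjusted p = 4.2e-13). Pcna, the sliding clamp, rose by 1.45 and Tyms, which makes thymidylate, by 1.72. All 50 genes of mitosis and cytokinesis rose as well (median 1.26, range 0.50 to 2.02). Aurkb, a kinase of chromosome segregation, had 9.79, 9.62 and 9.81 in γ+ arrays and 8.16, 8.28 and 8.36 in 23/24 arrays. Ccnb1, the mitotic cyclin B1, had 10.00, 9.76 and 9.98 in γ+ arrays and 8.95, 8.94 and 9.05 in 23/24 arrays. These arrays measure RNA and not cell division, and in bulk cultures fewer cells of a type and less RNA per cell cannot be told apart.

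The regulators of G1 did not all move in the same direction. Mitogen-responsive D cyclins bind Cdk4 and Cdk6, while E cyclins bind Cdk2 later in G1. Ccnd1 (cyclin D1) had 7.71, 7.34 and 7.72 in γ+ arrays, against 9.59, 9.62 and 9.66 in 23/24 arrays (-2.03 ± 0.08, limma adjusted p = 4.2e-12). Ccnd2 (cyclin D2) had 9.36, 9.21 and 9.49 in γ+ arrays and 10.51, 10.57 and 10.62 in 23/24 arrays. Both D cyclins were lower on every γ+ array, and Ccnd3 was not called (-0.09, 95% interval -0.21 to 0.04). The E cyclins went the other way, Ccne2 by 2.73 and Ccne1 by 1.90, along with Cdk2 (1.70). Skp2, a ubiquitin ligase subunit that targets a cell cycle inhibitor, rose by 1.86. Of the D cyclin partners, Cdk6 fell by 0.80 and Cdk4 rose by 0.29. E2F factors switch on S phase genes and the retinoblastoma family restrains them. In that list 8 of 10 genes rose, with the repressive members E2f8 at 2.18 and E2f7 at 2.13, the activator E2f1 at 0.99, and Rb1 at 0.74. E2f1 had 7.16, 6.59 and 7.05 in γ+ arrays and 5.88, 6.16 and 5.81 in 23/24 arrays, with no overlap but with replicate 2 of γ+ the lowest of its group. Inhibitors of cyclin-dependent kinases moved in both directions. Cdkn1a, the p53-induced inhibitor p21, had 11.15, 11.37 and 11.10 in γ+ arrays and 10.06, 10.04 and 10.01 in 23/24 arrays (1.16 ± 0.07), and Cdkn1c (p57) rose by 1.50, but Cdkn2b (p15) fell by 1.48 and Cdkn2a by 0.62.

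Genes of DNA repair, p53 signalling and chromatin were mostly higher too. Of 27 DNA damage and repair genes 25 rose and 0 fell (median 1.08), including Brca2 (2.07) and Brca1 (1.86) of homologous recombination and the checkpoint kinase Chek1 (1.50). Of 24 p53 target genes 18 rose and 2 fell (median 0.34), with the death effector Bax at 1.07, the p53 ligase Mdm2 at 0.96 and the death receptor Fas at 0.96. Chromatin genes rose in 16 of 21 cases (median 0.66), led by Hells, a remodelling helicase for DNA methylation (2.03), and Uhrf1, which guides the maintenance methyltransferase (1.86). Smyd1, the muscle methyltransferase, was on that list too and fell. Of 25 genes of the BCL2 family and caspases 7 were higher and 8 lower (median 0.03), near the shares of all genes (28.0% and 37.9%); Bcl2 itself fell by 0.97 and Bcl2l11, which encodes the pro-apoptotic BIM, rose by 0.67.

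The E2F site was searched as TTTCGCGC, TTTGGCGC or TTTCCCGC on both strands. It lay in 52 of 282 windows of genes higher by at least 1 (18.4%), in 11 of 430 windows of genes lower by at least 1 (2.56%), in 3.46% of tested windows and in 1.72% of all windows. Replication genes held it in 17 of 41 windows (41.5%) and mitosis genes in 0 of 43. Of the 288 tested genes with this match 158 were called higher and 60 lower (median 0.28), beside 2400 and 3028 of all 8319 genes with a window. The 3 genes with the largest rises and a match before the start are shown with their E2F matches in capitals, at 29 bases before the start in Hells, at 213, 209 and 8 in Mcm5, where the first 2 overlap, and at 233 and 52 in Mcm7. In Hells the 9 capitals that follow directly, and in Mcm7 the last 9 capitals, are matches to the interferon response element.
Hells (chr1:246113879-246114128, plus strand): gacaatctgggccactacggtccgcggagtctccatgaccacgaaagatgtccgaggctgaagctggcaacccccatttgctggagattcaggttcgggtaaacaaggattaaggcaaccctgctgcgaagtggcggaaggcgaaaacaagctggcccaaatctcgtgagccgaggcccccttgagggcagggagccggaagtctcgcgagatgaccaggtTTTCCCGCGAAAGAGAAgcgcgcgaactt
Mcm5 (chr19:13488563-13488812, plus strand): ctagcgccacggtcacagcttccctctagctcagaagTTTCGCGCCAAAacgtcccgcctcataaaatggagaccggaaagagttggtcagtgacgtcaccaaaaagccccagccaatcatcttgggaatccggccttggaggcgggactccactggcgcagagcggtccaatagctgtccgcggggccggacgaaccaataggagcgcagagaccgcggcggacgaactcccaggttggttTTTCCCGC
Mcm7 (chr12:22163179-22163428, minus strand): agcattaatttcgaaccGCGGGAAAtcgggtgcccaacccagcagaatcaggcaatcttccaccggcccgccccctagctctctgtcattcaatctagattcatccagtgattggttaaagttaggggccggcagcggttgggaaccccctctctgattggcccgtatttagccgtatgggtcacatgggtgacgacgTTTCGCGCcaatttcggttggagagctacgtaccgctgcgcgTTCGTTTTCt
Hells had 7.52, 7.42 and 7.51 in γ+ arrays, against 5.54, 5.38 and 5.44 in 23/24 arrays. Mcm7 had 9.15, 8.85 and 9.18 in γ+ arrays and 7.01, 7.18 and 7.22 in 23/24 arrays. Neither gene's groups overlapped.

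Antiviral genes induced by interferon were mostly higher with γ+. Interferons signal through JAK kinases to STAT and IRF factors, which switch on genes that block viral replication. Of 43 interferon-stimulated genes tested 34 rose and 7 fell (median 0.77), and 18 of the rises were at least 1. Ifi44l, counted among these rises, passed the filter only through γ+, with a mean of 5.84 there and 4.55 in 23/24 arrays. Of the falls, Oas3 and Nmi were not called under either other scaling. Isg15, a ubiquitin-like modifier, had 9.46, 9.46 and 9.47 in γ+ arrays, against 7.52, 7.70 and 7.75 in 23/24 arrays (1.81 ± 0.09, limma adjusted p = 2.0e-11), and 7.21, 7.49 and 7.17 in control arrays. Cxcl10 had 10.75, 10.91 and 10.73 in γ+ arrays, 8.48, 8.57 and 8.61 in 23/24 arrays, and 8.25, 8.40 and 8.34 in control arrays. Between 23/24 and control, interferon-stimulated genes differed by -0.17 to 0.37, and none was called. Isg15 (0.37), Oasl (0.35), Gbp5 (0.32) and Ifit1 (0.31) were the highest, at about or above the 99th percentile of 0.32 over all genes, with limma adjusted p of 0.209 to 0.215. Both compared groups received adenovirus and control did not, and the part of the virus in these values was not tested. Ifit1, Oasl and Gbp5, an RNA-binding restriction factor, an oligoadenylate synthetase relative and a guanylate-binding protein, rose by 2.04, 1.92 and 1.95. Ifitm1 and Ifitm3, which hinder viral entry at membranes, fell by 1.52 and 0.65. Among sensors and signalling genes 10 rose and 11 fell of 26 (median 0.06), and 11 and 7 under median centring. Of all genes, 28.0% were higher and 37.9% lower, or 36.9% and 26.2% under median centring, so this list as a whole was not far from those shares. Irf7, the factor that amplifies interferon production, had 9.68, 9.80 and 9.58 in γ+ arrays and 7.78, 7.92 and 7.93 in 23/24 arrays (1.81 ± 0.07), and the RNA sensor gene Ifih1 rose by 1.23, whereas Tlr4 fell by 0.86 and Ifngr1, a receptor chain for interferon-γ, by 0.78. Antigen presentation genes rose in 11 of 17 cases, with the costimulator Cd80 at 2.13 and the peptide transporter Tap1 at 0.93. The 3 that fell were Cd40, a costimulatory receptor (-0.62), the invariant chain Cd74 (-0.30) and B2m (-0.13), of which Cd40 alone kept its call under both other scalings.

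**Figure D3:**
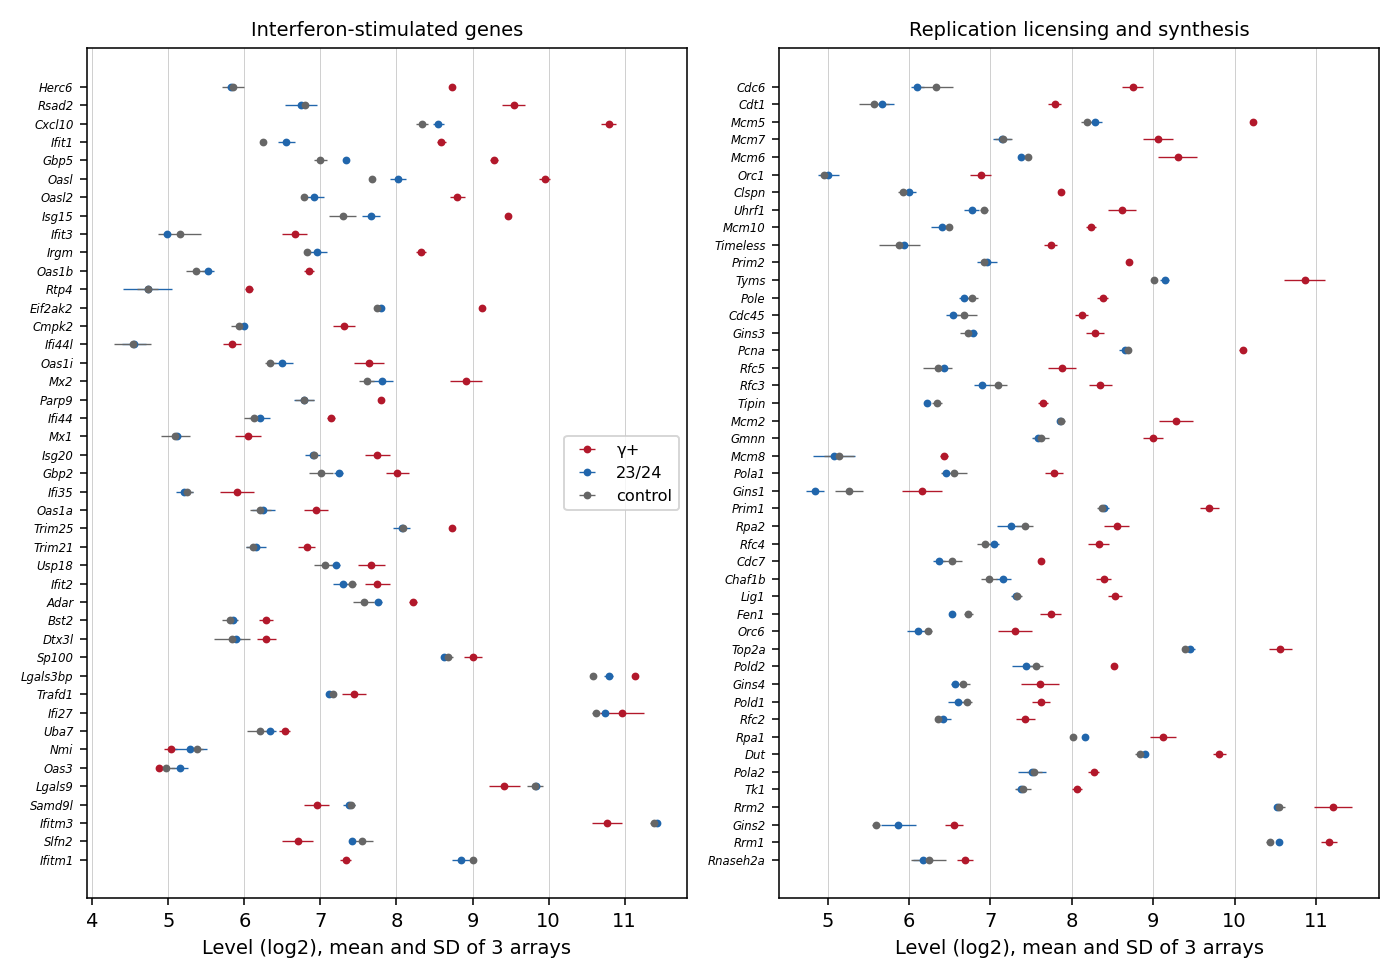
Mean level and SD of 3 arrays (log2, x axis) of each tested interferon-stimulated gene (left) and replication gene (right) in γ+ (red), 23/24 (blue) and control (grey). All 45 replication genes have γ+ right of 23/24, and in the interferon list 34 genes were called higher and 7 lower.

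The interferon response element was searched as GAAANNGAA on both strands. It lay in 24 of 34 windows of interferon-stimulated genes (70.6%), in 40 of 282 windows of genes higher by at least 1 (14.2%), in 26 of 430 windows of genes lower by at least 1 (6.05%), in 7.02% of tested windows and in 9.71% of all. The 2 genes with the largest rises and a match before the start, other than those already shown, are printed with the match in capitals, beginning 146 bases before the start in Rsad2 and 243 in Cxcl10.
Rsad2 (chr6:48788121-48788370, minus strand): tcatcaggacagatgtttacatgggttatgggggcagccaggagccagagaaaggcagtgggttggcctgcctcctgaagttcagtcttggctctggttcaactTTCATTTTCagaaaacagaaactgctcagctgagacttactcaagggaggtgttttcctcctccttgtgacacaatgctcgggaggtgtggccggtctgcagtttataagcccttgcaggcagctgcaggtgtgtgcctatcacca
Cxcl10 (chr14:15988816-15989065, plus strand): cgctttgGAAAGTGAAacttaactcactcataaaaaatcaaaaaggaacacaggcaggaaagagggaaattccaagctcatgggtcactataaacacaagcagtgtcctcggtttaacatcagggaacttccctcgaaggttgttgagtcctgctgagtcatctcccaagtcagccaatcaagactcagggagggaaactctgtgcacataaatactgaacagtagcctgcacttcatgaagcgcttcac
Over all 584 tested genes with this match, 186 were called higher and 198 lower (median -0.04), beside 2400 and 3028 of all 8319 genes with a window.

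**Figure D4:**
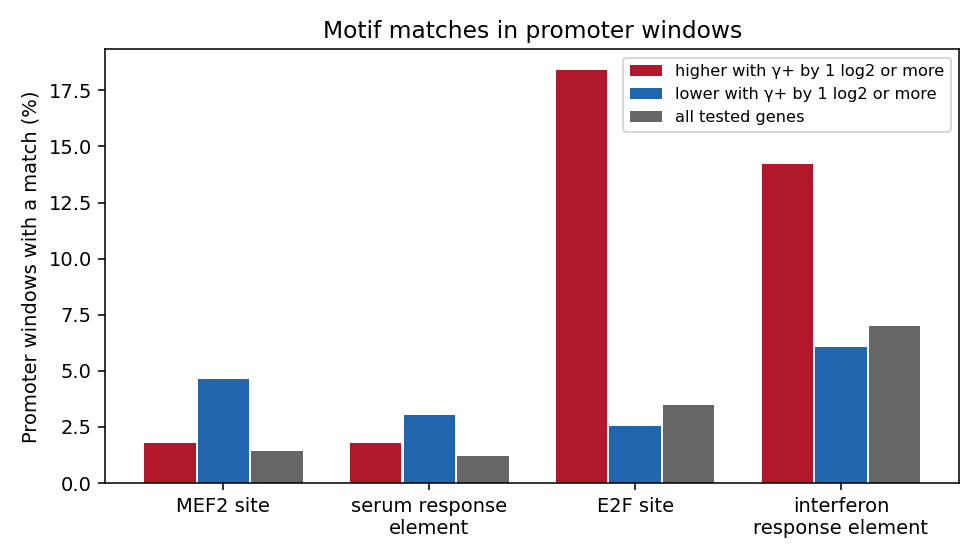
Percent of promoter windows with a match to each of 4 motifs, for genes called higher (red) or lower (blue) by at least 1 log2 with γ+ and for all tested genes (grey). The E2F site stands at 18.4%, 2.56% and 3.46%, and the MEF2 site at 1.77%, 4.65% and 1.41%.

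Inflammatory genes outside the interferon response were mostly lower. Of 26 mediators 16 fell and 4 rose (median -0.42). The neutrophil chemokine gene Cxcl6 fell by 2.12, the iron-binding Lcn2 by 2.02, the pentraxin Ptx3 by 1.70 and complement C3 by 1.53. Tnf, Ccl5, Ccl4 and Il6 rose by 0.93, 0.83, 0.70 and 0.33. All were low on the scale in 23/24 arrays. Il6, with means of 5.17 in γ+ and 4.84 in 23/24 arrays, was not called under some alternative settings. Immediate early and growth factor genes fell in 23 of 34 cases (median -0.70), among them Igf1, an insulin-like growth factor (-2.62), Hbegf, a ligand of the EGF receptor (-1.79), and Dusp6 and Dusp4, phosphatases of ERK kinases (-1.62 and -1.92). Atf3, a stress-induced factor, and Dusp5 rose by 0.71 and 0.31.

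Most markers of heart muscle load were lower together with these growth factors. In the list of natriuretic peptides and hypertrophy genes 14 of 23 fell and 4 rose (median -0.33), and 11 fell under median centring. Of all genes, 37.9% were lower and 28.0% higher. The 4 that rose were Nfatc3 (0.75), Atf3 (0.71), Hmox1 (0.22) and Mt1 (0.21), and Hmox1 was not called under some alternative settings. Edn1, the vasoconstrictor endothelin 1, had 5.70, 5.54 and 6.01 in γ+ arrays, against 8.0, 8.06 and 8.0 in 23/24 arrays (-2.27 ± 0.09, limma adjusted p = 2.6e-12). Rcan1, an inhibitor induced by calcineurin, fell by 2.16 and Npr3, which clears natriuretic peptides, by 2.05. Nppa, the A-type natriuretic peptide, had 12.88, 12.73 and 12.89 in γ+ arrays and 13.37, 13.39 and 13.34 in 23/24 arrays, a smaller difference (-0.53) near the top of the scale, where the highest value on any array was 13.89. Atrial markers fell in 12 of 16 cases (median -0.61), while Fgf12 on that list rose by 0.53.

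Extracellular matrix genes and markers of the other cell types in a heart culture were lower as well. Of 14 collagen genes 13 fell (median -0.91, and 10 under median centring), and of 40 matrix glycoprotein and enzyme genes 37 fell (median -1.05). Mfap2, counted among these falls, passed the filter only with the 23/24 arrays included, with means of 4.37 in γ+ and 5.14 in 23/24 arrays. Col3a1, a fibrillar collagen, had 7.89, 7.47 and 7.86 in γ+ arrays, against 9.80, 9.87 and 9.85 in 23/24 arrays. Thbs1, a matricellular thrombospondin (-2.22), and Lox, which crosslinks collagen (-1.98), were among the lowest, and Fbln1 rose by 0.43. In the TGF-beta and Hippo list 18 of 29 genes fell, with Ccn2 at -1.80, while Yap1, Stk4 and Stk3 of the Hippo pathway rose by 0.23, 0.28 and 0.30.

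All 16 fibroblast markers were above the filter and all fell (median -0.95), with Postn at -1.49 and Pdgfra at -1.24. Fap and Pi16 lay close to the cutoff of 4.78 and passed it only with the 23/24 arrays included. Their means were 4.33 and 4.58 in γ+ arrays and 4.96 and 5.09 in 23/24 arrays. Their summed level, as log2, was 13.13 to 13.30 in γ+ arrays, 14.13 to 14.20 in 23/24 arrays and 14.18 to 14.19 in control arrays. Smooth muscle markers fell in 14 of 15 cases, with sums of 13.93 to 13.96 in γ+ arrays and 14.82 to 14.85 in 23/24 arrays. They include Des, which was also counted among the Z-disc genes. Its means were 11.13 in γ+ and 12.63 in 23/24 arrays, so these sums are not separate from the heart muscle genes. Endothelial markers, of which 16 of 19 were above the filter, fell in 15 cases, with sums of 10.54 to 10.61 in γ+ arrays and 11.43 to 11.48 in 23/24 arrays. Macrophage and leukocyte markers fell in 10 of the 12 above the filter among 21 listed, and in 5 under median centring. The cardiomyocyte markers themselves had sums of 14.53 to 14.54 in γ+ arrays, 15.62 to 15.67 in 23/24 arrays and 15.61 to 15.66 in control arrays. Muscle and non-muscle markers were thus lower side by side, and the part of a shift in cell types in the results above was not tested.

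**Figure D5:**
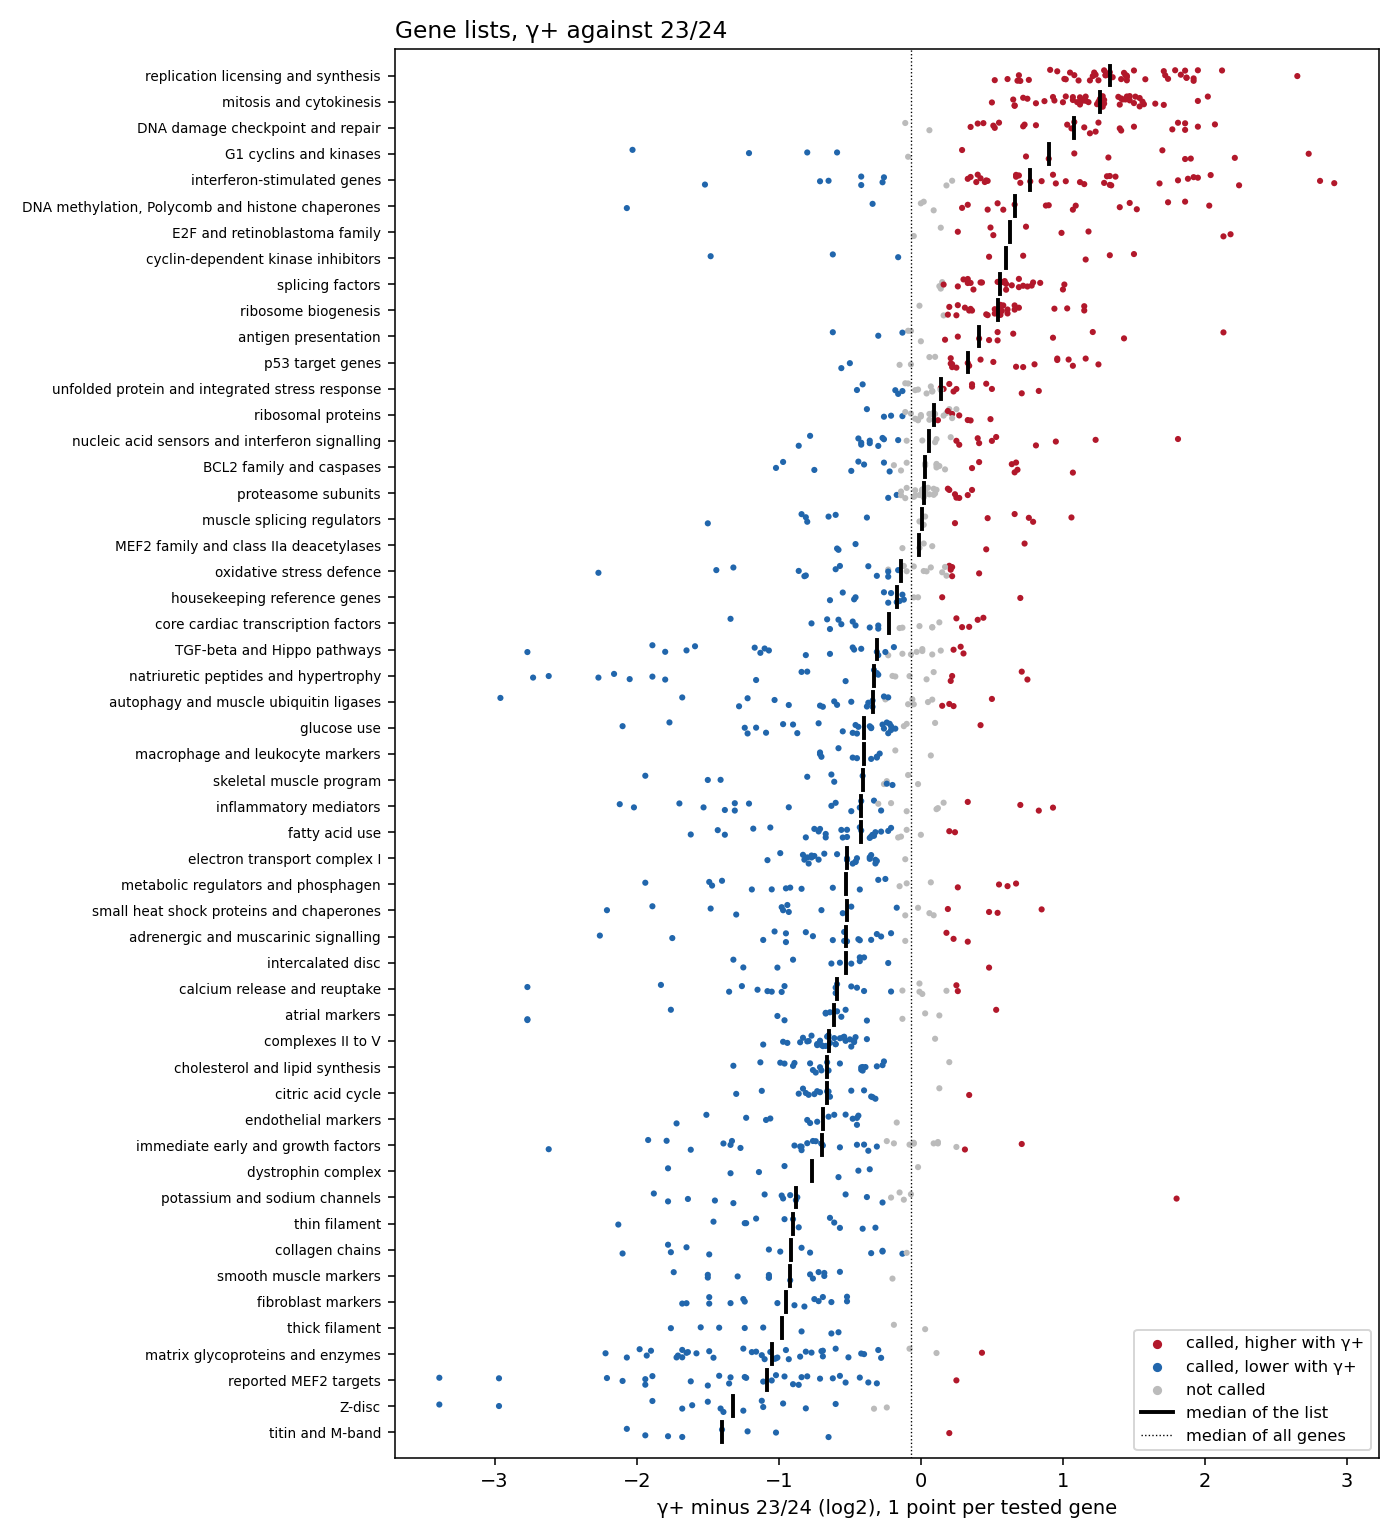
Difference γ+ minus 23/24 (log2, x axis) of each tested gene in the gene lists with at least 8 tested members, sorted by median (black bar); red and blue points were called higher and lower with γ+, grey points were not called, and the dotted line is the median of all genes. The medians run from -1.40 for the list of titin, M-band and associated genes to 1.33 for replication genes.

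Ribosome biogenesis genes rose in 26 of 28 cases (median 0.54), with the nucleolar factors Gnl3 and Nop58 both at 1.15. Splicing factors rose in 25 of 28 cases (median 0.56). The ribosomal proteins themselves had 7 higher and 4 lower of 29 as deposited but 17 and 1 under median centring, and proteasome subunits 7 and 2 of 30 but 13 and 0, so their direction depended on the scaling. Muscle splicing regulators divided, with Rbfox1 at -1.50 and Rbm20, which controls titin splicing, at -0.81, while Ptbp1 and Ptbp2, which repress many muscle exons, rose by 0.79 and 1.06. Small heat shock proteins of muscle fell (Hspb1 by 1.89, Hspb3 by 1.48), whereas the cytosolic chaperone Hsp90aa1 rose by 0.85. Of 27 genes of the unfolded protein and integrated stress responses 11 rose and 5 fell (median 0.14), where 28.0% of all genes were higher and 37.9% lower. Under median centring and under quantile normalization 2 fell, and Calr, Trib3 and Slc7a5 were no longer called. Reference genes had 2 higher and 11 lower of 15 as deposited, 2 and 4 under median centring, and 4 and 4 under quantile normalization. Gapdh was 13.70, 13.53 and 13.71 in γ+ arrays and 13.85, 13.87 and 13.84 in 23/24 arrays.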

How the data were processed

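RNA was measured on whole-transcript rat arrays from 2 µg of total RNA, per the labels. The deposited values lay between 1.09 and 13.89 (array medians between 5.33 and 5.53) and were therefore taken as log2. MAS5 is named in the submitters' processing notes, without a version; for background correction, summarization, normalization and log base, nothing is given in the sources used here. The number of arrays limits the precision.

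Single-gene probe sets were named from the platform table and updated through RefSeq (15178 of 15209 matched). Probe sets with a mean over 12 arrays above the 40th percentile (log2 4.78) were kept, which left out 4639 of the single-gene ones, and the probe set of highest mean stood for each of 10025 genes. Of 388 genes with several probe sets, 5 had calls in both directions (Rpl31, Taf15, Rnasek, Mast3 and Suv39h1). limma 3.58.1 in R 4.3.3 (lmFit, eBayes with an intensity trend) fitted 4 group means with 8 residual degrees of freedom, with Benjamini-Hochberg adjustment. On simulated data for γ+ against 23/24 it called 28% of genes changed by 0.25, 90% at 0.5 and 100% at 1 and 2 (50 genes each), and 7 of 166 calls were false. Far fewer genes were changed there than the 6599 called here, so these shares need not hold for this comparison.

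The comparison and its 55 gene lists, some sharing genes, were chosen with earlier results of these data known, and no test over a list was made. Genes were named by this rule: the 12 largest rises and falls without overlap, 3 called members of lowest adjusted p per list, called members against a list's majority, a fixed set, and the 5 called genes with the largest 23/24 minus control differences. The fixed set held MEF2, natriuretic and contractile genes, the calcium pump gene Atp2a2, the cell cycle genes Ccne2 and Cdkn1a, and the interferon-stimulated Rsad2. Other members given as examples were chosen after their values were seen. Same-numbered arrays had deviations correlating at -0.118, -0.031 and 0.124, so the numbers were not used as pairs. Alternatives covered scaling, filters, probe sets, priors, array weights, a replicate block, the 6 arrays alone and leaving out each array.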

Additional observations from a re-analysis of the deposited data

How the results depend on the processing

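Counts of called genes, and of called genes with a difference of at least 1, stayed within 1.5 times their value under each of the 23 alternatives run. Leaving out 1 array gave 2533 to 3091 genes higher and 3486 to 3792 lower, and 319 to 348 and 550 to 587 with a difference of at least 1. With replicate number as a block, 2759 genes were higher and 3723 lower; the numbers did not pair the samples. Of 239 genes named by the rule, 216 were called in the same direction in every setting that tested them. A change of sign was found for 4. B2m was at 0.01 with median centring and 0.05 with quantile normalization, Calr at 0.01 and 0.05 and Rpl18 at 0.0 with median centring, all from -0.13 as deposited. Suv39h1 was at 0.25 as the mean over its probe sets, which disagree, against -0.34. The direction of differences as small as these depended on the scaling, and a general offset between γ+ and 23/24 arrays from their separate normalization was not tested.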

Other observations

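Among the 6725 tested probe sets with several gene symbols or none, limma called 1242 higher and 1769 lower with γ+ (44.8%).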
